A study of Mus musculus with 12 samples.

Results

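The Shh domain is the stretch of mouse chromosome 5 that holds the Shh gene at one end and its farthest known enhancer near the other, taken here as chr5:28780000-29720000 (mm9). The contacts described are pairs of HindIII restriction fragments with both midpoints inside these 940 kb, more than 50 kb apart and above 0 in any library. There were 7952 such pairs among the 28980 fragment pairs above 0 over the whole locus (27.4%). They joined 189 fragments with a median length of 2306 bp, and the distances between their midpoints ran up to 933 kb with a median of 304 kb.

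Contacts were measured by chromosome conformation capture carbon copy (5C), in which crosslinked chromatin is cut and religated and the ligated fragment pairs are read out with pairs of oligonucleotides. All cells derived from the mouse embryonic stem cell line 46c. Untransfected stem cells (ESC) had 2 biological replicates, and neural progenitor cells (NPC), made from the line in N2B27 medium over 7 days, had 2. Transfected stem cells made up the other groups: tSBE6-Vp64 with 1 biological replicate, tSBE2-Vp64 with 1 and tSBE(6+2-Vp64) with 2. Their labels are taken to mean a TALE, a designed DNA-binding protein, that carries the Vp64 activator to the SBE6 enhancer, the SBE2 enhancer or both, which the labels do not spell out. No transfected control without Vp64 was analysed here, so transfection and activator cannot be told apart, and all 4 comparisons share the same ESC replicates. The files hold contacts and no expression values, so the cell types could not be set against marker genes. The labels call the replicates biological without saying which cultures they came from, so p-values measure the spread between these samples.

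Shh codes for a secreted signal of the developing spinal cord, brain and limbs. Its transcription depends on enhancers spread through a long gene-poor stretch, and contacts within this stretch can bring enhancers near the gene. The SBE elements act in the nervous system, while ZRS, within an intron of Lmbr1, drives Shh in the limb. No sequence of the fragments in mm9 was used here.

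Values are given per 1000 of a library's total over the locus, so a value of 1 is 0.1% of a library, and the value of a set of pairs is its mean per fragment pair. Implied depth over the locus ran from 0.978 to 48.1 M reads per library (M, mega), of which 0.184 to 10.0 M fell on the 7952 pairs. Reads of 5C carry no molecular identifiers, so depth bears on counting error only. The 12 files held 11 distinct libraries, because NPC replicate 1 technical replicate 1 and NPC replicate 2 technical replicate 2 agreed within 4.02e-08, and that library was counted once, in replicate 1. The 189 fragments fell into sets of 95 and 94 fragments, and no pair within a set was above 0 in any library (0 pairs). Neighbouring fragments lay in different sets in 178 of 188 cases. Of 15928 fragment pairs over 50 kb apart in the domain, 7967 joined the sets, and only 15 of these were never above 0.

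The libraries stood apart in ways the groups do not describe. Over the 7952 pairs, Spearman's rho between biological replicates of a group was 0.18 to 0.34, given as a description. ESC replicate 1, tSBE6-Vp64 and tSBE(6+2-Vp64) replicate 1 technical replicate 1 came from different groups, and their rho with one another was 0.64 to 0.69. They were also the libraries with the most pairs above 0, at 94.6%, 97.4% and 99.9%, against at most 87.9% in the others. Whether their rho follows from this was not tested. The highest rho, 0.93, was between both technical replicates of NPC replicate 1, against 0.44 and 0.16 for the technical replicates of tSBE(6+2-Vp64) replicates 1 and 2. Each result below that rests on ESC replicate 1 or on tSBE(6+2-Vp64) replicate 1 is therefore followed by its value without that replicate where the call differs. tSBE6-Vp64 has no other replicate to set beside it.

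The number of contacts detected differed widely between libraries. In ESC, 94.6% of the 7952 pairs were above 0 in replicate 1 and 58.8% in replicate 2, although their depths were 22.0 and 20.7 M reads. The NPC libraries detected 79.1%, 63.1% and 65.1%. tSBE6-Vp64 detected 97.4% and tSBE2-Vp64 87.9%. The 4 tSBE(6+2-Vp64) libraries detected 99.9%, 87.1%, 51.7% and 37.1%. Thinned to 0.184 M implied reads on these pairs, the depth of the shallowest library, ESC replicate 1 would still show 87.3% and ESC replicate 2 49.3%. The ESC replicates thus differed at equal implied depth. Thinning takes the implied reads as whole reads, which could not be accepted for each matrix column. Without molecular identifiers, equal reads also need not be equal numbers of molecules. The thinned NPC libraries lay together at 60.0%, 63.1% and 61.8%, between the ESC replicates. Thinned values were 90.1% for tSBE6-Vp64, 72.5% for tSBE2-Vp64, and 96.3%, 70.2%, 40.0% and 30.7% for tSBE(6+2-Vp64). In all, 811 pairs (10.2%) were above 0 in every library, and 6164 were above 0 in at least 1 library of each group.

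**Figure D1:**
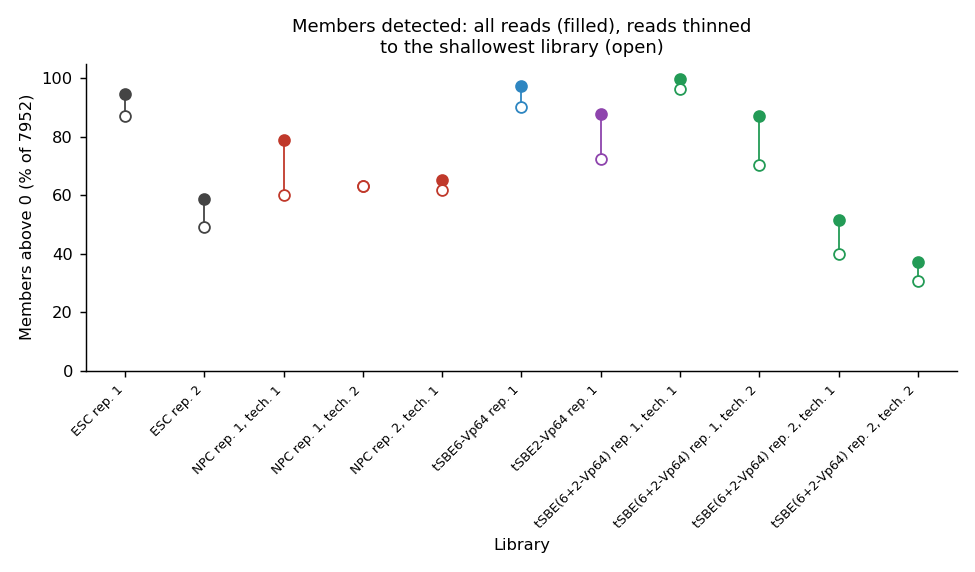
Percent of the 7952 long-range fragment pairs above 0 in each of 11 libraries (vertical axis), with all reads (filled circles) and thinned to 0.184 M implied reads on these pairs (open circles). Colours are the groups. The ESC replicates lie at 87.3% and 49.3% after thinning, and the NPC libraries between them.

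The number of fragment pairs that held most of the domain's long-range signal differed widely between libraries and was lowest in NPC. In the 3 NPC libraries, 4, 9 and 21 fragment pairs held 50% of the signal of all 7952. For ESC the numbers were 1257 and 479. tSBE6-Vp64 needed 1347 and tSBE2-Vp64 173, and the tSBE(6+2-Vp64) libraries needed 1640, 488, 35 and 376, so libraries of this group lay on both sides of tSBE2-Vp64. Only 4 of the 7952 pairs held over 0.5% of any library, against 21 pairs of the whole locus over 50 kb apart. These 4 pairs together held 0.319% and 11.1% of the domain's long-range signal in ESC, and 50.3%, 46.2% and 43.4% in the NPC libraries. They held 3.23% in tSBE6-Vp64, 34.0% in tSBE2-Vp64, and 4.27%, 21.5%, 30.9% and 10.3% in tSBE(6+2-Vp64). The pairs were picked for their height, and 2 of the 4 passed the limit in NPC libraries only. Part of the difference between NPC and ESC in these shares is therefore built in, and the shares are a description.

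The highest of them joined fragment Shh_178 (chr5:28884804-28887360) with Shh_295 (chr5:29253038-29259186), 370.03 kb apart. Its value was 0.352 and 10.1 per 1000 in ESC. In the NPC libraries it was 72.5, 67.5 and 63.5, or 7.25% of a whole library at its highest. It was 5.24 in tSBE6-Vp64 and 51.2 in tSBE2-Vp64. The tSBE(6+2-Vp64) libraries gave 11.5, 24.5, 29.2 and 6.40. The NPC and tSBE2-Vp64 values lay above those of all other libraries, while the tSBE(6+2-Vp64) values overlapped ESC replicate 2. The ESC replicates did not lie together. The mean of nearby pairs was lower in each library. The 24 other pairs within 3 fragments of both ends averaged 0.0323 and 0.146 in ESC, 0.104 to 0.139 in NPC, 0.0442 in tSBE6-Vp64, 0.139 in tSBE2-Vp64 and 0.0517 to 0.181 in tSBE(6+2-Vp64). Shh_178 also had a high value with Shh_297 (chr5:29262464-29264721), the next pair below the 0.5% limit, at 4.07 in its highest library against 6.33 for the lowest of the 4 pairs above it. Shh_297 lies within 3 fragments of Shh_295, so this pair is among those 24. It was at 0.0525 and 2.73 in ESC and at 1.99 to 2.75 in NPC, and it raises the averages of the 24 where it was high.

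The other 3 pairs lay elsewhere in the domain. Shh_154 (chr5:28805019-28805807) with Shh_459 (chr5:29705291-29706210) joined the far ends of the domain, 900.3 kb apart. It was at 0.133 and 3.10 in ESC, 5.06, 3.92 and 3.65 in NPC, 0.554 in tSBE6-Vp64, 3.78 in tSBE2-Vp64, and 0.134, 5.94, 12.6 and 2.00 in tSBE(6+2-Vp64). The NPC libraries were above both ESC replicates, and the tSBE(6+2-Vp64) libraries ran from near the lowest ESC value to above NPC. Shh_231 (chr5:29050004-29051239) with Shh_353 (chr5:29411528-29412802), 361.5 kb apart, was at 0.0123 and 0.789 in ESC and at 5.05, 9.19 and 9.38 in NPC. Its value was 0.134 in tSBE6-Vp64, 1.40 in tSBE2-Vp64, and 0.529, 0.421, 3.99 and 1.75 in tSBE(6+2-Vp64). Here NPC lay above every other library. This pair passed the 0.5% limit in NPC libraries only, so that order follows from how it was picked. Shh_239 (chr5:29082328-29083134) with Shh_285 (chr5:29236381-29237108), 154.0 kb apart, was at 0.0332 and 0.0357 in ESC, close together for this pair, and at 5.21, 6.33 and 1.99 in NPC. It was 0.227 in tSBE6-Vp64, 2.01 in tSBE2-Vp64, and 0.803, 1.44, 2.68 and 0.0414 in tSBE(6+2-Vp64). Every library outside ESC was above both ESC replicates. This pair, too, passed the limit in NPC libraries only, so its height in NPC is partly a matter of selection.

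**Figure D2:**
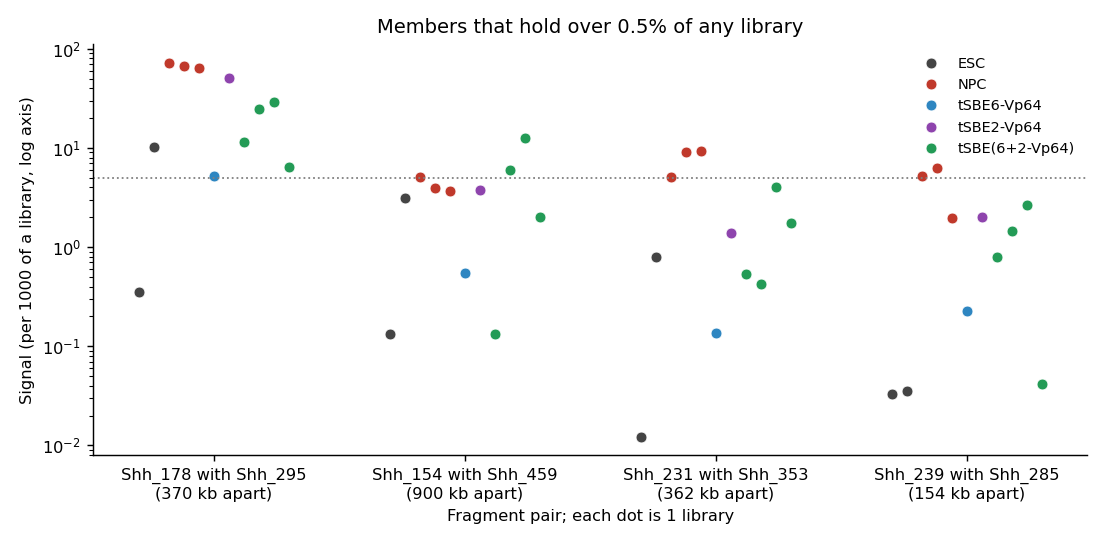
Signal per 1000 of a library (vertical log axis) of the 4 long-range fragment pairs that hold over 0.5% of any library; each dot is 1 of 11 libraries, colours are the groups and the dotted line is the 0.5% limit. Shh_178 with Shh_295 is at 63.5 to 72.5 in NPC and at 0.352 and 10.1 in ESC.

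Of all 7952 pairs, the 5 with the highest lowest value over the libraries were Shh_178 with Shh_295, Shh_154 with Shh_459, Shh_259 with Shh_281, Shh_355 with Shh_370, and Shh_178 with Shh_297. Shh_259 (chr5:29160129-29166826) with Shh_281 (chr5:29220328-29223230), 58.3 kb apart, ran from 0.130 to 3.92 with a median of 1.37. Shh_355 (chr5:29413668-29419014) with Shh_370 (chr5:29466664-29471070), 52.5 kb apart, ran from 0.118 to 1.34 with a median of 0.262. Each of these 5 pairs, picked for a high lowest value, varied by 11.4-fold or more between libraries. At the 50 kb limit, Shh_371 with Shh_385 just inside (50.03 kb) ran from 9.04e-05 to 0.0114, and Shh_267 with Shh_284 just outside (49.89 kb) from 0 to 0.0408.

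The share of a library held by the domain's long-range contacts was above both ESC replicates in NPC, tSBE6-Vp64 and tSBE2-Vp64, and the tSBE(6+2-Vp64) replicates overlapped ESC. It was 16.6% and 12.7% in the ESC replicates (14.6% ± 2.82, SD, n = 2) and 18.1% in both NPC replicates (18.1% ± 0.0332, n = 2). It was 19.0% in tSBE6-Vp64, 17.2% in tSBE2-Vp64, and 22.7% and 12.8% in tSBE(6+2-Vp64) (17.8% ± 6.99, n = 2). An exact two-sided permutation test gave p = 0.333 for NPC and p = 0.667 for tSBE(6+2-Vp64) against ESC. With 2 replicates against 2 the smallest p it can give is 0.333, so it cannot pass the threshold at this size. Without the 4 highest pairs the shares were 16.6% and 11.2% in ESC and 9.39% and 10.2% in NPC. This is a description with no test: the pairs were picked for their height, 2 of the 4 passed the limit in NPC libraries only, and the 4 held 8.30% of a library in NPC against 0.729% in ESC. With all 21 such pairs of the locus left out before scaling, NPC was again above ESC on average, by 2.43 percentage points. As a share of all signal over 50 kb, the domain's contacts held 44.6% and 31.1% in ESC, 24.4% and 26.2% in NPC, 44.1% in tSBE6-Vp64, 27.1% in tSBE2-Vp64, and 34.5% and 28.5% in tSBE(6+2-Vp64). On this scale both NPC replicates lay below both ESC replicates. All signal over 50 kb was 37.3% and 40.6% of the library in ESC and 74.3% and 69.0% in NPC.

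Signal was lower at longer distances in both ESC replicates and near level in NPC. The slope of log10 mean signal on log10 distance was -0.44 and -0.15 in ESC, 0.01 and -0.05 in NPC, -0.35 in tSBE6-Vp64, -0.07 in tSBE2-Vp64, and -0.16 and -0.04 in tSBE(6+2-Vp64). Without the 4 highest pairs it was -0.45 and -0.29 in ESC, -0.21 and -0.27 in NPC, -0.38 in tSBE6-Vp64, -0.27 in tSBE2-Vp64, and -0.28 and -0.24 in tSBE(6+2-Vp64). Each replicate then had a slope below 0. The NPC and ESC slopes did not overlap with or without these pairs; over all pairs an exact permutation test gave p = 0.333, the smallest possible. Over all other fragment pairs of the locus the slope was steeper in each replicate, at -0.75 and -0.60 in ESC and -0.25 and -0.36 in NPC.

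By distance class, the mean signal at 200-400 kb (2710 pairs) rose in NPC. It was 0.020 and 0.0183 in ESC and 0.0404 and 0.0395 in NPC, a log2 difference of 1.03 (SE 0.39, limma adjusted p = 0.0418). The spread was pooled over all classes of the locus, which share the same replicates, so this p-value may be too small. In NPC, 1 of the 5 classes inside the domain passed (20.0%), against 30% of the 10 classes tested over the locus, so the share inside the domain was no higher than over the locus. The call was lost when ESC replicate 1, ESC replicate 2, NPC replicate 1 or NPC replicate 2 was left out, with log2 differences of 0.96 to 1.10 over all left-out replicates. The 2 of the 4 highest pairs that fall in this class held 70.5% and 68.2% of the class signal in the NPC replicates and 0.673% and 22.0% in ESC. Without them, on the same scaling, the class was at 0.0199 and 0.0143 in ESC and 0.0119 and 0.0126 in NPC, with NPC below ESC.

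No other class passed in any comparison. At 50-100 kb (945 pairs) the values were 0.0358 and 0.0217 in ESC and 0.0180 and 0.0209 in NPC (log2 difference -0.50, SE 0.39, limma adjusted p = 0.342). At 100-200 kb (1573 pairs) they were 0.0263 and 0.0160 in ESC and 0.0149 and 0.0146 in NPC (-0.46, adjusted p = 0.356). At 400-600 kb (1712 pairs) they were 0.0141 and 0.0110 in ESC and 0.00984 and 0.0102 in NPC (-0.29, adjusted p = 0.572). NPC was below both ESC replicates in these 3 classes. Beyond 600 kb (1012 pairs) ESC was at 0.0127 and 0.0125 and NPC at 0.0144 and 0.0135 (0.14, adjusted p = 0.804). These directions depended on the scaling. Scaled over all signal beyond 50 kb, 4 classes were lower in NPC and 0 higher in limma, and scaled over the domain's long-range pairs, 3 were lower and 1 higher. With all 21 pairs over 0.5% of a library left out before scaling, 0 classes passed and 4 of 5 had a log2 difference above 0.

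The activator groups showed no class past the threshold, and 0 of 5 classes passed an unadjusted p of 0.05 in each of the 3 comparisons. Over the 10 classes of the locus, the share with an unadjusted p under 0.05 was 0% for tSBE6-Vp64, 20% for tSBE2-Vp64 and 10% for tSBE(6+2-Vp64), and the share called higher was 0%, 10% and 0% in the same order. tSBE6-Vp64 was above both ESC replicates in each class, from 0.0394 at 50-100 kb to 0.0164 beyond 600 kb (log2 differences 0.32 to 0.49, SE 0.48, limma adjusted p = 0.962). Scaled over the domain's long-range pairs, its log2 difference was above 0 in 2 of 5 classes and below 0 in 3. tSBE2-Vp64 was at 0.0346 at 200-400 kb (0.83, SE 0.48, adjusted p = 0.304) and at 0.0218, 0.0159, 0.0105 and 0.0143 in the other classes from the shortest on. The tSBE(6+2-Vp64) replicates were at 0.0372 and 0.020, 0.0297 and 0.0139, 0.0323 and 0.0197, 0.0205 and 0.0101, and 0.0225 and 0.0165 from the shortest class on. Replicate 1 was the higher in each class, and the replicates enclosed or overlapped ESC in all but the longest, where both lay above it (0.59, SE 0.39, limma adjusted p = 0.472). Without tSBE(6+2-Vp64) replicate 2, 2 classes passed in that comparison. With either tSBE(6+2-Vp64) replicate left out, 1 class passed in the tSBE2-Vp64 comparison.

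**Figure D3:**
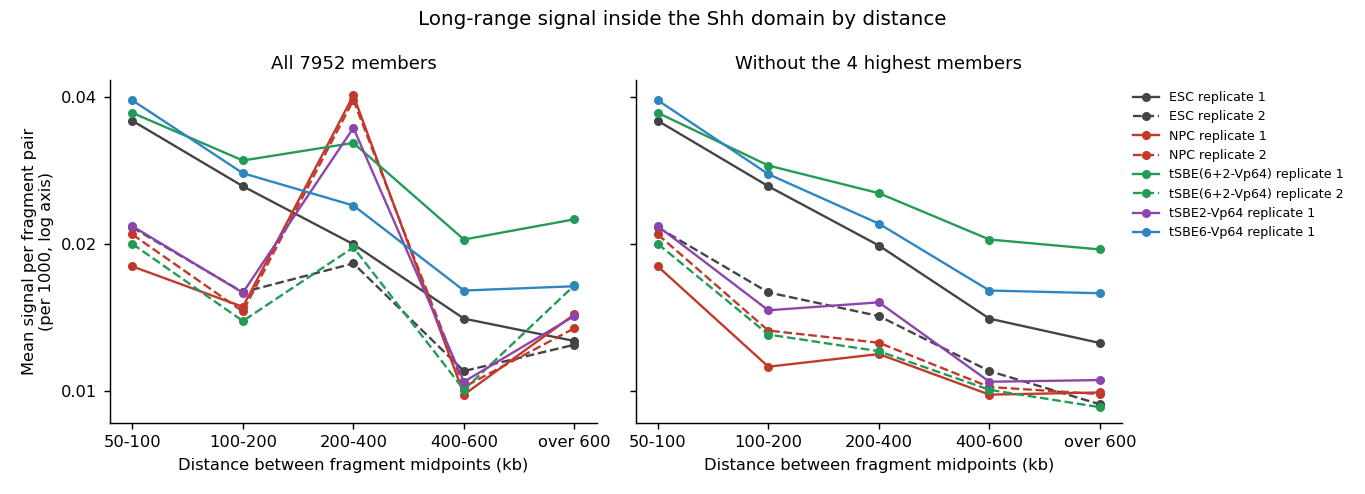
Mean signal per fragment pair per 1000 of a library (vertical log axis) by distance class for 8 biological replicates, over all 7952 pairs (left) and without the 4 highest pairs (right); colours are the groups and dashed lines are second replicates. The peak of NPC at 200-400 kb, 0.0404 and 0.0395, is at 0.0119 and 0.0126 without those pairs.

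The mean of the domain's contacts was also divided by that of all other fragment pairs of the locus at the same distance. This ratio was called lower in NPC than in ESC in 2 of 5 classes (40%). Each class tested is one of the domain, so this share is also the background. At 100-200 kb the ratio of domain to rest was 1.17 and 0.517 in ESC and 0.186 and 0.206 in NPC (log2 difference -1.94, SE 0.44, limma adjusted p = 0.0287). Beyond 600 kb it was 1.70 and 1.76 in ESC and 1.08 and 1.09 in NPC (-0.62, SE 0.12, adjusted p = 0.0287). Both NPC replicates were below both ESC replicates in these classes. The ratio also carries the rest of the locus, which at 100-200 kb had means of 0.0226 and 0.0308 in ESC and 0.0799 and 0.0706 in NPC. Beyond 600 kb the rest was at 0.00743 and 0.00710 in ESC and 0.0133 and 0.0124 in NPC. The domain's own mean beyond 600 kb was higher in NPC, at 0.0144 and 0.0135 against 0.0127 and 0.0125 in ESC. At 400-600 kb the ratio was 1.83 and 0.453 in ESC and 0.169 and 0.200 in NPC (-2.21, SE 0.73, adjusted p = 0.0622), and at 200-400 kb it was 1.66 and 1.74 in ESC and 2.10 and 1.96 in NPC (0.27, adjusted p = 0.0713). At 50-100 kb it was 0.900 and 0.462 in ESC and 0.426 in both NPC replicates (-0.58, adjusted p = 0.190). No class passed for tSBE6-Vp64, tSBE2-Vp64 or tSBE(6+2-Vp64), where limma gave 0, 1 and 0 classes with an unadjusted p under 0.05. Leaving out 1 replicate gave 3 passing classes in NPC when it was ESC replicate 1 and 4 when it was ESC replicate 2. The number was 0 without NPC replicate 1 or NPC replicate 2, and 1 without tSBE(6+2-Vp64) replicate 1 or tSBE(6+2-Vp64) replicate 2. Without ESC replicate 1, 3 classes passed for tSBE6-Vp64, and without ESC replicate 2, 2 passed for tSBE2-Vp64 and 2 for tSBE(6+2-Vp64). With either tSBE(6+2-Vp64) replicate left out, 1 passed for tSBE2-Vp64.

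By position, the domain was divided into 6 segments of 160 kb from its Shh end, the last of 140 kb. By general knowledge of the locus, segment 1 (chr5:28780000-28940000) holds Shh and SBE6, segment 3 (chr5:29100000-29260000) SBE4 and SBE2, segment 5 (chr5:29420000-29580000) Rnf32, and segment 6 (chr5:29580000-29720000) ZRS and the start of Lmbr1. These placements are approximate and were not checked against an mm9 annotation. The 21 segment pairs held 62 to 735 fragment pairs each.

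Contacts between segment 1 and segment 3 (483 fragment pairs) rose in NPC and in tSBE2-Vp64. The mean was 0.0223 and 0.0387 in ESC, 0.157 and 0.145 in NPC, 0.0338 in tSBE6-Vp64, 0.123 in tSBE2-Vp64, and 0.0630 and 0.0481 in tSBE(6+2-Vp64). All replicates of NPC, tSBE2-Vp64 and tSBE(6+2-Vp64) were above both ESC replicates. The log2 difference from ESC was 2.33 in NPC (SE 0.50, limma adjusted p = 8.33e-05), 2.03 in tSBE2-Vp64 (SE 0.61, adjusted p = 0.0249) and 0.88 in tSBE(6+2-Vp64) (SE 0.50, adjusted p = 0.396). The spread was pooled over all segment pairs of the locus, which share the same replicates, so these p-values may be too small. In NPC and tSBE2-Vp64 this was 1 of 21 segment pairs of the domain (4.76%), against 9.09% and 4.55% of the 66 segment pairs of the locus.

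The difference rested on 1 fragment pair. Shh_178 with Shh_295 held 92.3% and 90.5% of the signal between these segments in NPC, 86.4% in tSBE2-Vp64, 32.1% in tSBE6-Vp64, 59.2% and 76.7% in tSBE(6+2-Vp64), and 3.27% and 54.1% in ESC. The mean over the other 482 pairs was 0.0217 and 0.0178 in ESC, 0.0121 and 0.0138 in NPC, 0.0230 in tSBE6-Vp64, 0.0167 in tSBE2-Vp64, and 0.0258 and 0.0112 in tSBE(6+2-Vp64). Over these 482 pairs NPC and tSBE2-Vp64 lay below both ESC replicates, but this order depended on the scaling. Scaled over the domain's long-range pairs without the 4 highest, the 482 pairs were at 0.131 and 0.158 in ESC, 0.128 and 0.135 in NPC and 0.147 in tSBE2-Vp64, so NPC overlapped ESC and tSBE2-Vp64 lay between its replicates. The NPC call was also lost without ESC replicate 1. The tSBE2-Vp64 call was lost without ESC replicate 1 and also without either replicate of NPC or of tSBE(6+2-Vp64). With 1 replicate, tSBE2-Vp64 and tSBE6-Vp64 are assumed to vary like the other groups.

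The remaining 20 segment pairs passed in no comparison. In NPC, 16 of 21 segment pairs had a log2 difference below 0 (median -0.33, against 0.08 over the 66 of the locus), and both NPC replicates were below both ESC replicates in 10 (47.6%, against 31.8% over the locus) and above both in 3 (14.3%, against 40.9%). In tSBE2-Vp64, 16 of 21 were below 0 (median -0.25, against 0.12), with 8 below both ESC replicates (38.1%, against 19.7%) and 3 above both (14.3%, against 42.4%). In tSBE6-Vp64, all 21 were above 0 (median 0.46, against 0.25), and the replicate was above both ESC replicates in 16 (76.2%, against 48.5%) and below both in 0 (0%, against 7.58%). The smallest p values there were for contacts within segment 1 (log2 difference 0.70), within segment 2 (log2 difference 0.66) and within segment 5 (log2 difference 0.63), each with a limma adjusted p = 0.975. In tSBE(6+2-Vp64), 13 were above 0 and 8 below (median 0.06, against 0.41), with both replicates above both ESC replicates in 3 (14.3%, against 33.3%) and below both in 0 (0%, against 0%). These splits moved with the scaling, and the NPC and tSBE2-Vp64 directions turned: with the 21 pairs over 0.5% of a library left out before scaling, 15 of 21 segment pairs were above 0 in NPC, 15 in tSBE2-Vp64, 21 in tSBE6-Vp64 and 16 in tSBE(6+2-Vp64). Scaled over all signal beyond 50 kb, 20 of 21 were below 0 in NPC, of which 15 passed in limma, and 20 in tSBE2-Vp64, of which 0 passed. Scaled over the domain's long-range pairs, tSBE6-Vp64 was no longer above 0 throughout, with 13 of 21 above and 8 below (median 0.08). After segment 1 with segment 3, the tSBE(6+2-Vp64) group's smallest p values were for segment 1 with segment 6 and segment 2 with segment 6. Segment 1 with segment 6, the pair that spans the Shh and Lmbr1 ends, was at 0.0150 and 0.0213 in ESC and 0.0304 and 0.0371 in tSBE(6+2-Vp64) (0.88, SE 0.50, limma adjusted p = 0.396). One of the 4 highest pairs, Shh_154 with Shh_459, held 31.4% and 61.7% of these tSBE(6+2-Vp64) values and 2.78% and 45.6% of the ESC values. Without it, on the same scaling, the other 318 pairs were at 0.0147 and 0.0116 in ESC and 0.0209 and 0.0143 in tSBE(6+2-Vp64), which overlap. Segment 2 with segment 6 was at 0.0116 and 0.00672 in ESC and 0.0197 and 0.00869 in tSBE(6+2-Vp64) (0.53, SE 0.50, adjusted p = 0.692).

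Of the 21 segment pairs, 5 lay on the same side of the mean for their distance in all 8 replicates, and 3 of these 5 also without their highest fragment pair. With the 4 highest pairs left out, the mean of each segment pair was divided by the mean of the domain's pairs at the same distances in the same replicate. Segment 3 with segment 5 was below 1 in all 8 replicates, from 0.582 to 0.800 (735 pairs), and its range was 0.570 to 0.797 without its highest fragment pair. Contacts within segment 5 (0.568 to 0.928, 127 pairs) and within segment 6 (0.608 to 0.846, 92 pairs) were also below 1 in all 8. Segment 1 with segment 4 (344 pairs) was above 1 in all 8, from 1.39 to 2.02. Its highest fragment pair, Shh_178 with Shh_297, held 0.733% to 47.4% of its signal, and without that pair the ratio was 0.928 to 1.43 and above 1 in 6. Contacts within segment 3 (206 pairs) were above 1 in all 8, from 1.07 to 1.58, and in 4 without Shh_259 with Shh_281. The other 16 of 21 segment pairs lay on both sides of 1. Among these, segment 2 with segment 5 (0.672 to 0.898) and segment 2 with segment 6 (0.790 to 0.985) were below 1 in all 8 without their highest fragment pair. No test was made of these ratios.

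**Figure D4:**
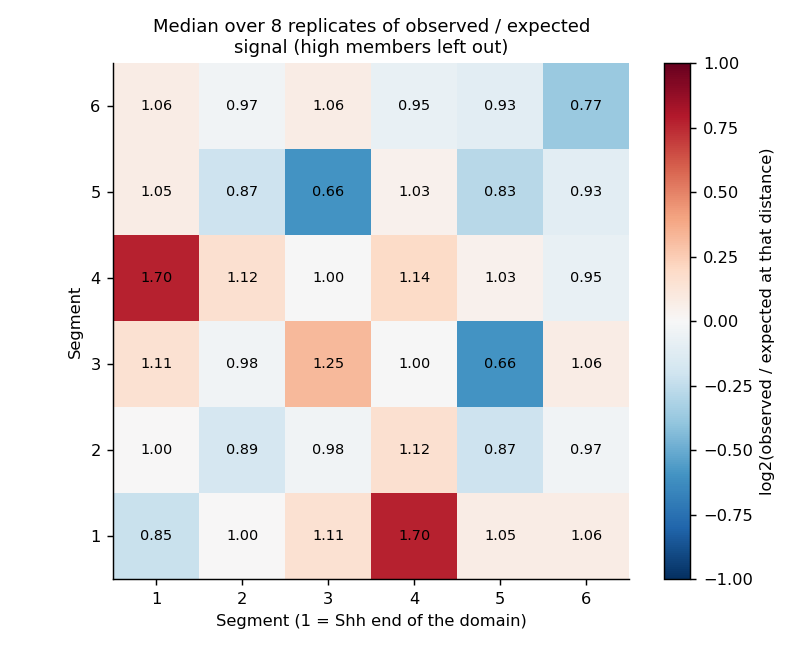
Median over 8 replicates of observed over expected signal for each pair of the 6 segments (both axes, segment 1 at the Shh end), with the 4 highest fragment pairs left out; colour is log2 of the ratio. Segment 1 with segment 4 (median 1.70) and segment 3 with segment 5 (median 0.66) depart most from 1.

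Along the domain in bins of 20 kb, the mean signal of a bin's long-range contacts over the 8 replicates was highest in the bins chr5:29240001-29260000 (0.0814), chr5:28880001-28900000 (0.0804) and chr5:29060001-29080000 (0.0387). The first pair of bins hold Shh_295 and Shh_178, and without the 4 highest pairs they were at 0.0216 and 0.0239. Over all pairs chr5:29240001-29260000 was at 0.0297 and 0.0401 in ESC, 0.156 and 0.146 in NPC, 0.0415 in tSBE6-Vp64, 0.119 in tSBE2-Vp64, and 0.0674 and 0.0511 in tSBE(6+2-Vp64). The bin chr5:28880001-28900000 was at 0.0242 and 0.0416 in ESC, 0.155 and 0.144 in NPC, 0.0356 in tSBE6-Vp64, 0.123 in tSBE2-Vp64, and 0.0674 and 0.0528 in tSBE(6+2-Vp64). Both were highest in NPC and tSBE2-Vp64. In ESC replicate 1 and in tSBE6-Vp64 both were below chr5:29060001-29080000. The bin chr5:29060001-29080000, with 84 pairs, was at 0.0490 and 0.0274 in ESC, 0.0315 and 0.0306 in NPC, 0.0493 in tSBE6-Vp64, 0.0330 in tSBE2-Vp64, and 0.0562 and 0.0324 in tSBE(6+2-Vp64), with no order between groups. The lowest bins were chr5:29440001-29460000 (0.00495), chr5:28920001-28940000 (0.00869) and chr5:29540001-29560000 (0.0112). In chr5:29440001-29460000 the values were 0.00547 and 0.00579 in ESC, 0.00190 and 0.00233 in NPC, 0.00880 in tSBE6-Vp64, 0.00561 in tSBE2-Vp64, and 0.00511 and 0.00459 in tSBE(6+2-Vp64). NPC was the lowest there. This bin held 85 pairs, and the bins of the domain held 84 to 795. Its values and those of chr5:29060001-29080000 therefore rest on few fragments. Across the 189 fragments, mean signal without the 4 highest pairs went with fragment length at a Spearman's rho of 0.09 to 0.39 over the replicates, lowest in the NPC replicates (0.09 and 0.15). Fragments share a library and its depth, so these are descriptions.

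**Figure D5:**
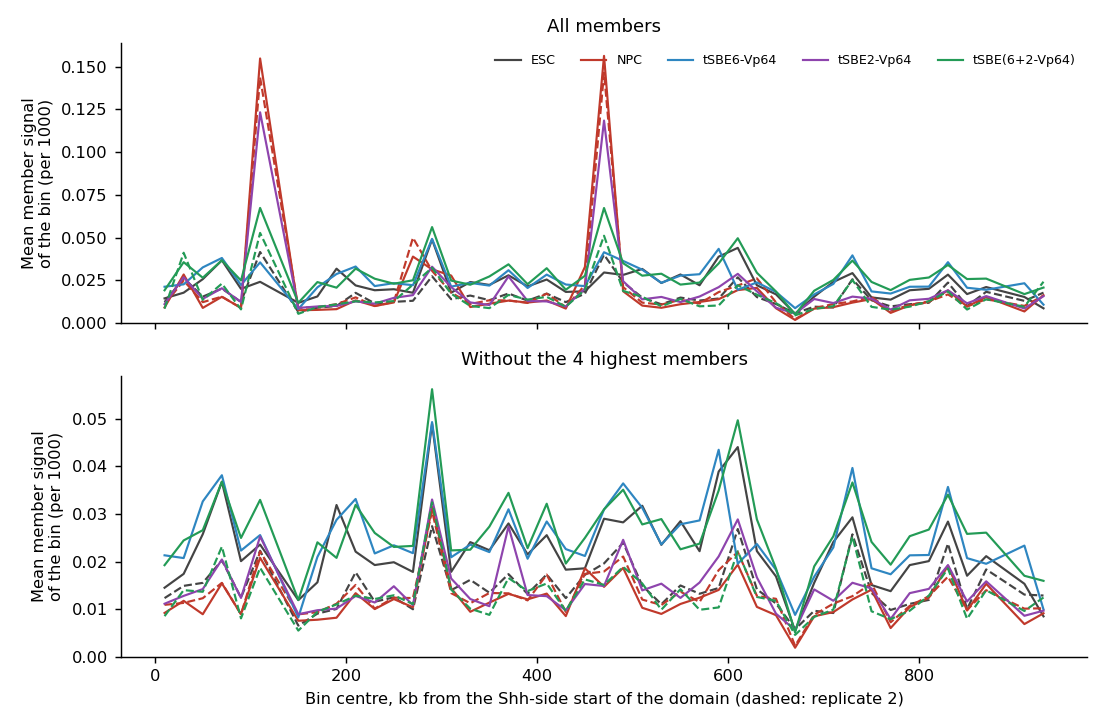
Mean signal per 1000 of the long-range fragment pairs of each 20-kb bin (vertical axis) along the domain from its Shh end, over all pairs (top) and without the 4 highest (bottom); lines are replicates, colours the groups. The peaks near both ends of Shh_178 with Shh_295, highest in NPC, are absent in the lower panel.

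At the scale of pairs of 20-kb bins, 913 bin pairs of the domain were tested among 3605 of the locus. In NPC, 1 passed, higher than ESC (0.110%, against 0.111% over the locus), and 88 had an unadjusted p under 0.05 (9.64%, against 9.49% over the locus). It joined the bins that start at 29080001 and 29220001 (12 fragment pairs) and was at 0.0146 and 0.0134 in ESC and 0.529 and 0.212 in NPC (log2 difference 4.50, SE 0.60, limma adjusted p = 0.010). The pair Shh_239 with Shh_285 described above held 87.2% of the NPC value. The same bin pair was at 0.188 in tSBE2-Vp64 (3.67, SE 0.73, limma adjusted p = 0.174), 0.119 and 0.133 in tSBE(6+2-Vp64) (3.09, SE 0.60, adjusted p = 0.219) and 0.0382 in tSBE6-Vp64. The count in NPC was 0 without tSBE(6+2-Vp64) replicate 1 or tSBE(6+2-Vp64) replicate 2, 2 without NPC replicate 1 or NPC replicate 2, 20 without ESC replicate 1 and 14 without ESC replicate 2.

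In tSBE6-Vp64, tSBE2-Vp64 and tSBE(6+2-Vp64), 0 bin pairs of the domain passed in limma, and 6, 22 and 13 had an unadjusted p under 0.05. These were 0.657%, 2.41% and 1.42% of the 913, against 1.08%, 3.69% and 3.25% over the locus. Over the locus, 0% were called higher for tSBE6-Vp64 and tSBE2-Vp64 and 0.0555% for tSBE(6+2-Vp64), and 0.0277% were called lower for tSBE2-Vp64. The smallest p values in tSBE6-Vp64 belonged to single fragment pairs, Shh_154 with Shh_342, Shh_342 with Shh_362 and Shh_191 with Shh_366. Their log2 differences were -5.81, -3.03 and 3.49, all with a limma adjusted p = 1.0. In tSBE2-Vp64 the next smallest were the bins of Shh_212 with Shh_378 (-5.09, adjusted p = 0.220) and of Shh_251 with Shh_378 (-5.38, adjusted p = 0.365). In tSBE(6+2-Vp64) they were Shh_168 with Shh_193 (3.29) and Shh_342 with Shh_362 (-2.58), both with a limma adjusted p = 0.999. Without ESC replicate 1, 10, 12 and 11 bin pairs passed in tSBE6-Vp64, tSBE2-Vp64 and tSBE(6+2-Vp64), and without ESC replicate 2, 0, 5 and 6.

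The bin pairs as a whole differed in level. Of the 913 in the domain, 367 (40.2%) had both NPC replicates below both ESC replicates, against 30.4% over the locus, and 56 (6.13%) above, against 13.6%. The median log2 difference in NPC was -0.61, against -0.30 over all 3605. In tSBE2-Vp64, 400 (43.8%) were below both ESC replicates, against 33.6%, and 112 (12.3%) above, against 26.7% (median -0.33, against -0.04). In tSBE6-Vp64, 497 (54.4%) were above, against 45%, and 85 (9.31%) below, against 15.6% (median 0.54, against 0.45). In tSBE(6+2-Vp64), 79 (8.65%) were above, against 16.7%, and 39 (4.27%) below, against 4.13% (median -0.01, against 0.25). The direction in NPC and tSBE2-Vp64 turned with the scaling. Of the 913 bin pairs, 695 were below 0 in NPC and 611 in tSBE2-Vp64, against 436 and 416 with the 21 pairs over 0.5% of a library left out before scaling. In tSBE6-Vp64, 753 were above 0, and 737 in that setting. Scaled over the domain's long-range pairs, 597 were above 0 in tSBE6-Vp64 and 316 below.

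With the 4 highest pairs left out and each library scaled over the remaining long-range pairs of the domain, a setting chosen after seeing the data, values are given as a description with no test, because the pairs left out were picked for their values and 2 of the 4 passed the limit in NPC libraries only. Contacts beyond 600 kb were at 0.0757 and 0.0836 in ESC and 0.106 and 0.0965 in NPC (log2 difference 0.32). Contacts at 100-200 kb were at 0.159 and 0.142 in ESC and 0.119 and 0.130 in NPC (-0.25). At 200-400 kb the difference was 0.02. Segment 2 with segment 6 was at 0.0702 and 0.0598 in ESC and 0.110 and 0.0920 in NPC (0.59), and segment 2 with segment 5 at 0.0712 and 0.0638 in ESC and 0.106 and 0.0954 in NPC (0.53). The ESC and NPC replicates did not overlap in these 2 classes and 2 segment pairs. These were chosen after their values were seen and are those that limma called in this setting. Lack of overlap was not particular to them. The class at 400-600 kb was at 0.0849 and 0.0978 in ESC and 0.105 and 0.0998 in NPC. Segment 1 with segment 5 also lay higher in NPC without overlap, and segment 1 with segment 2 lower. The class at 50-100 kb overlapped.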

How the data were processed

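Per the labels, cells were crosslinked with formaldehyde, digested with HindIII and ligated before 5C. The deposited matrices hold a signal for each fragment pair, taken as its reads per 1000 of the library: in the lowest library 100% of low values were whole multiples of a smallest step (tolerance 0.05 of a step), which gave the implied depth. Coordinates are mm9, per the file headers. No aligner or read filter is named in the labels or headers.

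The 341 fragments shared by all files (341 to 348 per file) were kept, libraries scaled to 1000 over them, and technical replicates averaged. Means were tested as log2(mean + 8.2e-04) in limma 3.58.1 under R 4.3.3 (lmFit and eBayes, two-sided, with a trend for bin pairs only). The pseudocount is percentile 5 of the nonzero 20-kb bin-pair values. All 5 groups entered a joint model, with Benjamini-Hochberg adjustment over the whole locus per comparison at 0.05. Folds are on this scale and understate low values. Bin pairs had to be above 0 in at least 2 replicates, and segment pairs to hold at least 20 fragment pairs. The scripts were tested on simulated data. Python 3.11.15 made the tables.

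Named were all distance classes, segment pairs and bin pairs that passed, or the 3 with the smallest p, fragment pairs over 0.5% of any library, the 5 with the highest lowest value, and the 3 highest and 3 lowest bins. Members and lists were chosen with earlier results of these data known. The authors' averaged matrices were not used. For distance classes and segment pairs the model pooled the spread over all features, which share libraries, so these p-values may be too small. The labels share replicate numbers 1 and 2 between groups, which were not treated as pairs.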

Additional observations from a re-analysis of the deposited data

Results flagged for a closer look

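Of 43 measures compared over the 4 tSBE(6+2-Vp64) libraries, 7 set the first technical replicate of replicate 1 apart from the other 3 by Dixon's criterion; chance alone would do so for about 1 group in 20, and the measures share their libraries. Its share of signal in the domain's long-range contacts without the 4 highest pairs was 29.1%, against 11.8%, 10.8% and 8.91%. Its mean value was 0.0517 at 50-100 kb and 0.0429 at 100-200 kb, against at most 0.0226 and 0.0165 in the others. The 4 segment pairs concerned were segment 1 with segment 2 (0.0434), segment 1 with segment 5 (0.0283), within segment 5 (0.0432) and segment 5 with segment 6 (0.0402).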

How the results depend on the processing

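Of 25 planned settings and 1 added after seeing the data, those named here moved a count or value; the cause was not tested. Main counts of passing features inside the domain were 1 distance class, 2 domain-to-rest ratios, 1 segment pair and 1 bin pair in NPC, 1 segment pair in tSBE2-Vp64, and 0 otherwise. Main differences from ESC in domain share were 3.46 (NPC), 2.53 (tSBE2-Vp64) and 3.12 (tSBE(6+2-Vp64)) percentage points.

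Scaled over all signal beyond 50 kb, these shares differed by -12.6, -10.8 and -6.24, NPC had 4 classes, 16 segment pairs and 0 bin pairs, tSBE2-Vp64 had 0 segment pairs, and the NPC class beyond 600 kb turned from 0.14 to -0.69. Scaled over the domain's long-range pairs, NPC had 4 classes, 10 segment pairs and 0 bin pairs, tSBE2-Vp64 0 segment pairs, and that class was at -0.16. Without pairs over 0.5% of any library, the NPC slope difference was 0.133 (main 0.276). NPC then had 0 classes, 4 ratios (1 higher and 3 lower), 0 segment pairs and 0 bin pairs. Ratios then numbered 1 in tSBE6-Vp64, 2 in tSBE2-Vp64 and 1 in tSBE(6+2-Vp64), and tSBE2-Vp64 had 0 segment pairs. The NPC classes at 50-100 and 400-600 kb turned to 0.18 and 0.37, the NPC ratios at 50-100 and 200-400 kb to 0.35 and -0.24, and segment 1 with segment 3 in tSBE(6+2-Vp64) to -0.081. The added setting, with the same pairs left out and scaling inside the domain, is given as a description with no test. In it the NPC class at 400-600 kb was at 0.16, and segment 1 with segment 3 was at -0.12 in NPC and -0.25 in tSBE(6+2-Vp64).

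With the mean of log2 values, which weights each fragment pair equally, NPC had 0 classes, 0 ratios and 0 segment pairs, tSBE2-Vp64 0 segment pairs, and ratios numbered 2 in tSBE6-Vp64 and 1 in tSBE(6+2-Vp64). The NPC classes at 200-400 kb and beyond 600 kb turned to -0.59 and -0.19, the NPC ratios at 50-100 and 200-400 kb to 0.000694 and -0.41, and segment 1 with segment 3 to -0.69 in NPC and -0.23 in tSBE2-Vp64. With pairs above 0 in every library only, the NPC share difference was 9.01, NPC had 0 ratios and 2 bin pairs, tSBE2-Vp64 0 segment pairs, tSBE(6+2-Vp64) 1 bin pair, and the NPC classes at 100-200 and 400-600 kb were at 0.057 and 0.082. With 4 times the pseudocount NPC had 4 ratios and 4 bin pairs, and beyond 100 kb only it had 4 ratios. With only ESC and the group compared in the model, NPC had 1 ratio and 0 bin pairs and tSBE2-Vp64 0 segment pairs. With each library as a column, NPC had 0 classes and 0 bin pairs and tSBE2-Vp64 0 segment pairs. NPC had 2 segment pairs with 100-kb segments, 0 bin pairs without the trend, and 2 with the repeated library left out. Bin pairs above 0 in all 8 replicates gave 6 in NPC, 4 in tSBE2-Vp64 and 1 in tSBE(6+2-Vp64), and 40-kb bins gave 7, 2 and 2.

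With the replicate number as a block, 8 bin pairs passed in NPC and 1 in tSBE2-Vp64; the ratio count in NPC was 3 and no other count moved. Same-numbered replicates deviated together at correlations of -0.03 (ESC and NPC), 0.22 (ESC and tSBE(6+2-Vp64)) and -0.003 (NPC and tSBE(6+2-Vp64)) over all bin pairs of the locus; the labels name nothing shared by equal numbers, so they were not treated as pairs.

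Leaving out each replicate in turn gave 0 to 1 class, 0 to 4 ratios, 0 to 1 segment pair and 0 to 20 bin pairs in NPC. It gave 0 to 3 ratios and 0 to 10 bin pairs in tSBE6-Vp64, 0 to 1 class, 0 to 2 ratios, 0 to 1 segment pair and 0 to 12 bin pairs in tSBE2-Vp64, and 0 to 2 classes, 0 to 2 ratios and 0 to 11 bin pairs in tSBE(6+2-Vp64). Share differences ran from 1.47 (without ESC replicate 2) to 5.45 (without ESC replicate 1) in NPC, and without the same replicates from 2.41 to 6.39 in tSBE6-Vp64 and 0.544 to 4.53 in tSBE2-Vp64. The tSBE(6+2-Vp64) share difference ran from -1.83, without its replicate 1, to 8.06, without its replicate 2, and slope differences from 0.135 to 0.418 (NPC), -0.193 to 0.0905 (tSBE6-Vp64), 0.0795 to 0.363 (tSBE2-Vp64) and 0.0536 to 0.337 (tSBE(6+2-Vp64)). Segment 2 with segment 6 in tSBE(6+2-Vp64) ran from -0.027, without its replicate 1, to 1.06. The planned count test on recovered reads was not run, because too few low values per matrix column were found to accept them as whole reads.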
